A study of Homo sapiens with 19 samples.

Results

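HUES66 human embryonic stem cells kept with doxycycline were compared at 96 hr and at 48 hr. Of the 19 RNA-seq libraries in the study, 8 are of this kind: 4 at 48 hr and 4 at 96 hr, all of library series 23c. At each time there was 1 library from control cells (genotype WT, library name marked empty), 1 from cells with RBFOX2 total knockdown, 1 with knockdown of the N-short isoform and 1 with knockdown of the N-long isoform. All 8 cultures received doxycycline at 1 ug/ml, the drug that switches on an inducible transgene, and the study's title names the knockdown effector as Cas13d, an RNA-guided nuclease that cuts RNA. HUES66 is an established pluripotent line, grown here in StemFlex medium on Geltrex and passaged with Accutase and 10 uM of the ROCK inhibitor Y-27632. The labels give hours but not the event they are counted from, nor the density or the passage at harvest. Each 96 hr library was paired with the 48 hr library of the same knockdown, so that a knockdown effect common to both times cancels. With 1 library per knockdown and time, nothing in the labels shows that the pairs came from separate cultures, and the p-values measure only the spread between these libraries.

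Pluripotent stem cells grow as epithelial sheets whose RNA responds to their surroundings: oxygen, nutrients, contact with matrix and neighbours, and growth factors such as FGF and Nodal. Hypoxia-inducible factors, p53, the unfolded protein response, NRF2 and YAP are transcriptional regulators that read out such conditions, each through a known set of target genes. Splicing is a second layer: proteins of the SR, hnRNP and RBFOX families decide whether a cassette exon, an exon flanked by introns that can be joined across it, is kept or skipped. Several of these proteins limit their own amounts through exons that carry a premature stop codon and send the RNA to nonsense-mediated decay.

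The deposited values are reads across splice junctions, 12208870, 14403078, 13138790 and 13698557 reads per library at 48 hr and 13320107, 11009271, 11459525 and 13235243 at 96 hr. Values of 4 libraries are given throughout in the order control, total, N-short, N-long, and gene levels are junction reads scaled to library size (CPM). After thinning every library to 11009271 reads, 174267 to 174762 annotated junctions were seen at 48 hr and 170097 to 170902 at 96 hr. Unannotated junctions held 2.05 to 2.16% of reads at 48 hr and 1.80 to 1.99% at 96 hr, so on both measures the times did not overlap. All 10 stem cell markers were above 1 CPM at both times, and their summed level was 4270 to 4520 CPM at 48 hr and 4770 to 5780 at 96 hr. The members moved both ways. DNMT3B had the largest rise, from 1130 to 1340 CPM at 48 hr to 1850 to 2530 at 96 hr. LIN28A, TDGF1, L1TD1 and ZFP42 also rose in every pair, while PODXL and DPPA4 fell in every pair. Of 8 fibroblast markers, 5 were above 1 CPM at both times (748 to 809 CPM summed at 48 hr, 539 to 628 at 96 hr) and DCN had no read. Most of the sum was COL1A1, COL1A2 and THY1, while COL3A1 was at most 0.244 CPM and LUM at most 0.076. At most 2 markers of endoderm (7), mesoderm (7), trophoblast or amnion (8) or melanoma (5) were above 1 CPM at either time, and SOX17, TTR, HAND1, CDX2, CGA, TYR and MLANA had no read. Not all were low: the mesoderm marker KDR was at 88.2 to 101 CPM at 48 hr and 47.8 to 65.1 at 96 hr. The melanoma marker PMEL was at 65.3 to 70.2 CPM at 48 hr and 37.8 to 45.2 at 96 hr. These 2 genes made up most of their sets' sums. In RNA from whole cultures, fewer cells of a type and less RNA per cell cannot be told apart. On a multidimensional scaling plot the first axis (62% of the variance) separated the times, and the total knockdown library at 96 hr stood apart on the second (9.32%).

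Between 48 and 96 hr, 7755 of the 12909 genes in the test had an adjusted p under 0.05 (60.1%), 3835 of them higher at 96 hr (29.7%) and 3920 lower (30.4%). All 4 pairs were higher at 96 hr in 32.0% of genes and all 4 were lower in 32.7%. The median log2 change over all genes was -0.0052. Most changes were small: 925 genes changed by at least 1 on the log2 scale, and of these 152 rose and 773 fell. Of the 773 large falls, 289 were in genes with a mean under 2 CPM and 13 in genes at 100 CPM or more. Genes with a mean under 2 CPM had a median log2 change of -0.30 (8.57% higher, 29.6% lower), whereas genes at 100 CPM or more had a median of 0.090 (52.3% higher, 24.7% lower). The 185 lincRNA genes had a median of -0.36, with 10.8% higher and 42.7% lower. The thinned junction counts and the unannotated share given above moved the same way as these rare RNAs, and their part in the falls was not tested. DESeq2 called 5966 genes (3034 higher, 2932 lower), all of them among the 7755. Counts in the gene lists below are to be read beside these shares, and no list was compared with genes of matched level.

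The times stood apart in every knockdown group for the genes with the largest changes. ENOX1, an ecto-NOX oxidoreductase of the cell surface (ENSG00000120658.13, chromosome 13, 43213518 to 43786908), was at 1.62, 0.867, 1.19 and 0.914 CPM at 48 hr and 25.6, 13.3, 25.6 and 20.7 at 96 hr. It was low in all 4 libraries at 48 hr and high in all 4 at 96 hr, a log2 change of 4.20 (SE 0.146, adjusted p = 8.8e-18). ODC1, ornithine decarboxylase and the rate-limiting enzyme of polyamine synthesis (ENSG00000115758.12, chromosome 2, 10439968 to 10448504), was at 61.3, 82.6, 65.3 and 65.7 CPM at 48 hr and 291, 299, 288 and 282 at 96 hr. Its groups did not overlap and the log2 change was 2.08 (SE 0.0453, adjusted p = 2.9e-21). VIM, the intermediate filament protein vimentin (ENSG00000026025.15, chromosome 10, 17228259 to 17237593), was at 146, 135, 157 and 156 CPM at 48 hr and 678, 420.1, 776 and 608 at 96 hr. All 4 libraries at 96 hr were above all 4 at 48 hr, the total knockdown library being the lowest of the 96 hr group, and the log2 change was 2.04 (SE 0.0597, adjusted p = 4.5e-19). ABCA1, which pumps cholesterol out of cells, was at 22.5, 20.8, 23.7 and 19.3 CPM at 48 hr and 92.1, 85.8, 79.1 and 82.8 at 96 hr, again without overlap (log2 change 1.98, SE 0.0629, adjusted p = 2.0e-18). The other genes at the top of the rise were PPP1R17 (a phosphatase regulator, 2.46), PLXNA4 (a semaphorin receptor, 2.05), SCN2A (a neuronal sodium channel, 2.05), CNTNAP5 (1.9), GLIPR1L1 (1.84), the arrestin family gene ARRDC3 (1.79), the protease gene TMPRSS11E (1.79) and MALAT1 (1.77). For MALAT1, a nuclear RNA that is mostly unspliced, the value covers spliced reads only.

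The genes with the largest falls were lower at 96 hr in each of the 4 pairs. MEIOB, a single-strand DNA binding protein of meiosis (ENSG00000162039.15, chromosome 16, 1833987 to 1884294), was at 12.5, 12.8, 9.87 and 10.5 CPM at 48 hr and 0.0815, 1.18, 0 and 0.568 at 96 hr, and the groups did not overlap (log2 change -4.67, SE 0.289, adjusted p = 6.5e-13). GABRP, the pi subunit of the GABA-A receptor, was at 22.3, 13.7, 26.7 and 25.7 CPM at 48 hr and 3.5, 2.07, 2.99 and 3.81 at 96 hr, lower in all 4 pairs (log2 change -2.82, SE 0.119, adjusted p = 3.5e-16). ANKRD1, a transcriptional co-regulator and a textbook YAP target, was at 7.0, 4.84, 5.13 and 3.96 CPM at 48 hr and 0.407, 0.788, 0.654 and 0.893 at 96 hr (log2 change -2.91, SE 0.261, adjusted p = 6.4e-10). No library at 96 hr reached the lowest 48 hr library for any of these 3 genes. COL24A1, a fibrillar collagen, fell by 2.73 on the log2 scale, PVALB, a calcium-binding protein, by 2.71, BTN3A2, a butyrophilin, by 2.55, SPTB, an erythroid spectrin, by 2.55 and CLIC6, of the chloride intracellular channel family, by 2.47. CCDC146 (log2 change -3.27), the pseudogene FER1L4 (-3.13) and the noncoding genes AC105383.1 (-3.43) and AC097478.1 (-2.95) completed the group.

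**Figure D1:**
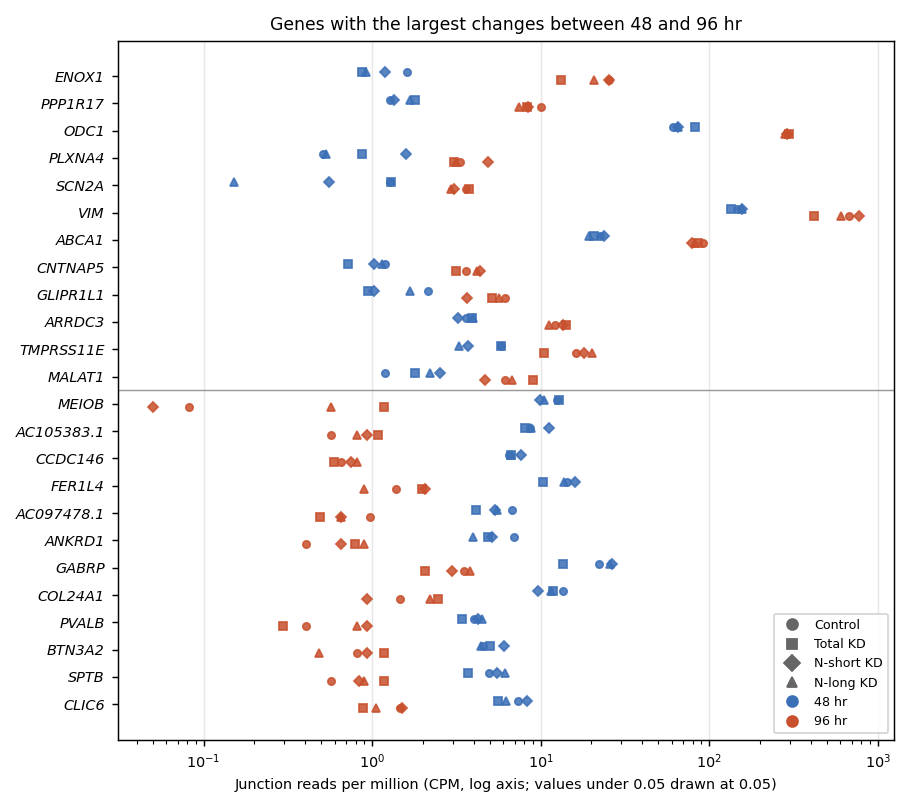
Junction reads scaled to library size (CPM, log axis) in each of the 8 libraries for the 12 genes with the largest rise and the 12 with the largest fall between 48 hr (blue) and 96 hr (red); symbols mark the knockdown. For ENOX1 the libraries lie between 0.867 and 1.62 CPM at 48 hr and between 13.3 and 25.6 CPM at 96 hr, and for MEIOB all 4 libraries at 96 hr are at or under 1.18 CPM.

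Hypoxia response genes were lower at 96 hr: of the 20 tested members 17 fell and none rose, with a median log2 change of -0.59, beside -0.0052 for all genes. Hypoxia-inducible factors bind short sites with the core ACGTG. BNIP3, a mitophagy receptor (ENSG00000176171.11, chromosome 10, 131966455 to 131982013), was at 49.4, 45.1, 66.7 and 65.6 CPM at 48 hr and 20.4, 21.3, 23.8 and 23.1 at 96 hr. P4HA1, a collagen prolyl hydroxylase, was at 109, 113, 134 and 127 CPM at 48 hr and 54.5, 60.6, 53.6 and 55.1 at 96 hr. The 2 genes fell in all 4 pairs without overlap between the times, with log2 changes of -1.35 (SE 0.0703, adjusted p = 2.5e-14) and -1.10 (SE 0.0544, adjusted p = 8.2e-15). P4HA2, the other catalytic subunit gene of that enzyme (-1.18), and ERO1A, the oxidase of disulfide formation in the ER (-0.72), fell as well. DDIT4, an mTORC1 inhibitor named here after its values were seen, had the largest fall of the list (-1.75). CA9 (0.35, adjusted p = 0.439), EGLN3 (-0.16, adjusted p = 0.329) and INSIG2 (-0.28, adjusted p = 0.0553) did not pass the test.

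Glycolysis genes, many of which hypoxia-inducible factors also control, moved less evenly: of the 22 tested members, 3 rose and 12 fell, with a median log2 change of -0.16. The glucose transporter SLC2A3 was at 794, 852, 840.2 and 870.2 CPM at 48 hr and 579, 595, 572 and 592 at 96 hr, lower at 96 hr in every pair (log2 change -0.52, SE 0.0257, adjusted p = 8.4e-15). Enolase 2, ENO2 (-0.94), and the liver-type phosphofructokinase PFKL (-0.46) fell, while GAPDH was 2823 to 3015 CPM at 48 hr and 3582 to 3907 at 96 hr and rose (0.33). SLC16A3, the lactate exporter, was chosen after its values were seen and had the largest fall (-3.82, 2.24 to 4.42 CPM at 48 hr and 0 to 0.788 at 96 hr).

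The 250 bases before the transcription start of each RefSeq gene (GRCh38.p14, 35116 promoters) were searched on both strands for ACGTG. It was present in 18.5% of all promoters and in 11 of the 17 hypoxia response genes that matched an entry (64.7%), 9 of which fell and none of which rose. Stretches are shown for BNIP3 and DDIT4, whose RNAs fell by 1.35 and 1.75 on the log2 scale, with the match in capitals (ACGTG, or CACGTG where both strands match); the positions are BNIP3 at chr10:131982027-131982081, minus strand and DDIT4 at chr10:72273774-72273828, plus strand. A match is a run of letters and says nothing about binding in these cells.
BNIP3: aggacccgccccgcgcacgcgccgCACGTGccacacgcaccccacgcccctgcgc
DDIT4: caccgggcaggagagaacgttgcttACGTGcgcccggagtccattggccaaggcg

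The p53 target genes had the lowest median of the groups plotted: of the 24 tested members, 2 rose and 17 fell, with a median log2 change of -0.67. CCNG1, cyclin G1, was at 346, 304, 346 and 362 CPM at 48 hr and 211, 183, 208 and 197 at 96 hr, and TNFRSF10B, a TRAIL death receptor, was at 120.5, 104, 113 and 116 CPM at 48 hr and 62.2, 67.7, 64.9 and 60.4 at 96 hr. Both were lower in all 4 libraries at 96 hr than in any at 48 hr (log2 changes -0.77, SE 0.0323, adjusted p = 3.7e-16 and -0.83, SE 0.0504, adjusted p = 4.2e-13). RRM2B, the p53-inducible ribonucleotide reductase subunit, fell (-0.99), as did the cell cycle inhibitor CDKN1A (-1.58, 4.99 to 6.93 CPM at 48 hr and 1.22 to 2.85 at 96 hr, named after its values were seen). TP53I3, a quinone oxidoreductase gene, went the other way, at 13.8, 13.6, 12.9 and 14.8 CPM at 48 hr and 32.3, 31.6, 31.5 and 31.5 at 96 hr (log2 change 1.20, SE 0.0764, adjusted p = 1.0e-12). The total knockdown library had the lowest list score of the 4 at 48 hr and the highest at 96 hr, so its pair moved least, as the plot of gene groups over the doxycycline libraries shows.

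Chaperones of the endoplasmic reticulum rose: of the 22 tested genes of the unfolded protein response, 17 rose and 2 fell, with a median log2 change of 0.32. HSPA5 (BiP), the main ER chaperone (ENSG00000044574.7, chromosome 9, 125234853 to 125241330), was at 369.5, 366, 368 and 374 CPM at 48 hr and 620.2, 602, 581 and 604 at 96 hr. The times did not overlap and the log2 change was 0.70 (SE 0.0268, adjusted p = 5.7e-17). The lectin chaperones CANX (0.55) and CALR (0.43) and the ER stress chaperone HYOU1 (0.43) rose with it. ERN1, which encodes the stress sensor IRE1, fell (-0.68), as did EDEM1, of ER-associated degradation (-0.49). Cytosolic heat shock chaperones also rose: of the 17 tested members, 11 rose and 2 fell, with a median log2 change of 0.21. HSPA8, the constitutive HSP70, was at 1317, 1324, 1308 and 1345 CPM at 48 hr and 2315, 2313, 2158 and 2225 at 96 hr, without overlap (log2 change 0.77, SE 0.0233, adjusted p = 8.1e-19). Its nucleotide exchange factor HSPH1 (0.65), the J-protein DNAJA1 (0.49) and HSP90AA1 (0.40) rose, while BAG3 (0.036, adjusted p = 0.838) and DNAJB1 (0.0088, adjusted p = 0.928), both heat-inducible, did not pass the test.

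The ER stress element, CCAAT followed after any 9 bases by CCACG, searched on both strands of the same promoters, was found in 26 of 35116 (0.074%) and in 7 of the 21 unfolded protein response genes that matched an entry (33.3%): CALR, CANX, CRELD2, HSP90B1, HSPA5, PDIA6 and XBP1. All 7 rose. The stretches of HSPA5, CALR and CRELD2 are shown because no annotated exon overlaps them, with the fixed letters of the element in capitals; on the plus strand of CALR and CRELD2 the element reads in reverse complement. Positions are HSPA5 at chr9:125241366-125241434, minus strand, CALR at chr19:12938359-12938427, plus strand and CRELD2 at chr22:49918529-49918597, plus strand.
HSPA5: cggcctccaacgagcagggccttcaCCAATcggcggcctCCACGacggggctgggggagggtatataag
CALR: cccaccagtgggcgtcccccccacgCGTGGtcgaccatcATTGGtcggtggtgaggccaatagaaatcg
CRELD2: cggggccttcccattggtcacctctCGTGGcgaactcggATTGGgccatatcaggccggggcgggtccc

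Oxidative stress genes driven by NRF2 and the metallothioneins, small metal-binding proteins, moved up: of the 18 tested members, 12 rose and 1 fell, with a median log2 change of 0.31. NQO1, a quinone reductase (ENSG00000181019.12, chromosome 16, 69706996 to 69726951), was at 25.2, 30.9, 24.5 and 24.2 CPM at 48 hr and 42.1, 47.8, 38.4 and 40.6 at 96 hr. All 4 libraries at 96 hr were higher (log2 change 0.69, SE 0.0641, adjusted p = 1.1e-09). The glutathione synthesis gene GCLC (0.41) and the pentose phosphate enzyme PGD (0.36) rose, and transketolase, TKT, fell (-0.45). The letters TGACNNNGC, the core of the antioxidant response element, were in 10.9% of all promoters and in 6 of 13 matched members (46.2%), all 6 of which rose. TXNRD1 (thioredoxin reductase, log2 change 0.23) and ME1 (malic enzyme, 0.64) are shown with the fixed letters in capitals, at TXNRD1 at chr12:104215655-104215713, plus strand and ME1 at chr6:83431155-83431213, minus strand.
TXNRD1: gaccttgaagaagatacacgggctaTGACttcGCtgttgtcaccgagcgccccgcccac
ME1: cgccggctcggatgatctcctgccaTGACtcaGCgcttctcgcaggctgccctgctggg

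Interferon response and MHC class I genes mostly fell: of the 20 tested members, 2 rose and 14 fell, with a median log2 change of -0.53. HLA-B, a classical antigen-presenting molecule, was at 32.0, 24.5, 26.1 and 27.9 CPM at 48 hr and 12.7, 9.84, 10.5 and 10.7 at 96 hr, without overlap (log2 change -1.34, SE 0.0817, adjusted p = 4.9e-13). HLA-C (-0.70) and the immunoproteasome subunit PSMB8 (-1.20) fell, whereas USP18 (1.13) and IRF7 (0.79) rose. HLA genes are near-identical to each other and polymorphic, so reads may have been divided among them.

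Genes of the basement membrane and matrix fell: of the 28 tested members, 1 rose and 22 fell, with a median log2 change of -0.50. LAMA1, a laminin chain of the early embryo's basement membrane, was at 339, 305, 323 and 344 CPM at 48 hr and 172, 167, 174 and 175 at 96 hr (log2 change -0.93, SE 0.0317, adjusted p = 6.8e-18). LAMA5 (-0.79), the proteoglycan perlecan HSPG2 (-0.92) and fibrillin 2, FBN2 (-1.06), fell, and VCAN, versican, was the 1 member that rose (0.67). The summed fibroblast markers, 748 to 809 CPM at 48 hr and 539 to 628 at 96 hr, were lower as well. Of them, DCN was at 0 and COL3A1 and LUM were at no more than 0.244 CPM. COL1A2, THY1 and PDGFRB fell in every pair, COL1A1 rose in the total knockdown pair only, and POSTN rose in every pair. The part of these markers in the fall of the matrix genes was not tested. YAP target genes fell likewise: of the 14 tested members, 1 rose and 12 fell, with a median log2 change of -0.54. CYR61, a matricellular protein, was at 56.0, 59.1, 50.9 and 60.1 CPM at 48 hr and 20.0, 22.4, 14.4 and 22.6 at 96 hr, with all 4 libraries at 96 hr lower (log2 change -1.51, SE 0.0709, adjusted p = 3.0e-15). CTGF (-1.0), AMOTL2, a YAP-binding angiomotin (-1.0), and TEAD1, the DNA-binding partner of YAP (-0.58), fell, and AMOTL1 rose (0.43). Of 23 SRF and actin cytoskeleton genes, 13 fell and 7 rose (median -0.25), the falls including caldesmon CALD1 (-0.79), TAGLN (-0.51), MYH9, non-muscle myosin (-0.42), and tropomyosin TPM1 (-0.36).

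Ligands and feedback genes of developmental signalling changed in both directions. Among Nodal pathway genes, 6 of 16 rose and 7 fell (median 0.087). LEFTY2, a secreted Nodal antagonist, was at 13.1, 14.7, 14.4 and 12.4 CPM at 48 hr and 2.93, 4.82, 3.55 and 3.57 at 96 hr, without overlap (log2 change -1.88, SE 0.131, adjusted p = 5.2e-12), and its neighbour LEFTY1 (-1.12) and the antagonist CER1 (-1.01) fell too. The receptor gene ACVR2B fell (-0.32) and SKIL, a SMAD co-repressor, rose (0.27). LEFTY1 and LEFTY2 are near-identical copies, so reads may be divided between them. BMP target genes fell or did not pass the test: of the 8 tested members, 0 rose and 6 fell, with a median log2 change of -0.37. SMAD6, the inhibitory SMAD, was at 2.30, 2.02, 2.45 and 2.44 CPM at 48 hr and 0.326, 0.788, 0.467 and 0.568 at 96 hr (log2 change -2.10, SE 0.319, adjusted p = 3.6e-06), and the helix-loop-helix inhibitors ID3 (-0.35) and ID2 (-0.39) fell by less. ID2 did not pass the test with DESeq2 (adjusted p = 0.0966) or without the N-long pair (adjusted p = 0.0591). In the Notch pathway, 8 of 13 genes fell and 3 rose (median -0.31): HES4, a target (-3.12), and the ligands DLL3 (-1.67), DLL1 (-1.29) and JAG1 (-0.72) were lower. FGF and ERK feedback genes divided, 3 higher and 8 lower of 16 (median -0.21), with the phosphatase DUSP6 (-0.62) and the ETS factor ETV5 (-0.42) lower and DUSP5 (0.80) and ETV4 (0.22) higher. Of 10 WNT pathway genes (50% called) 2 rose, AXIN2 (0.57) and SFRP1 (0.23), and 3 fell, NKD2 (-0.95) the most.

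**Figure D2:**
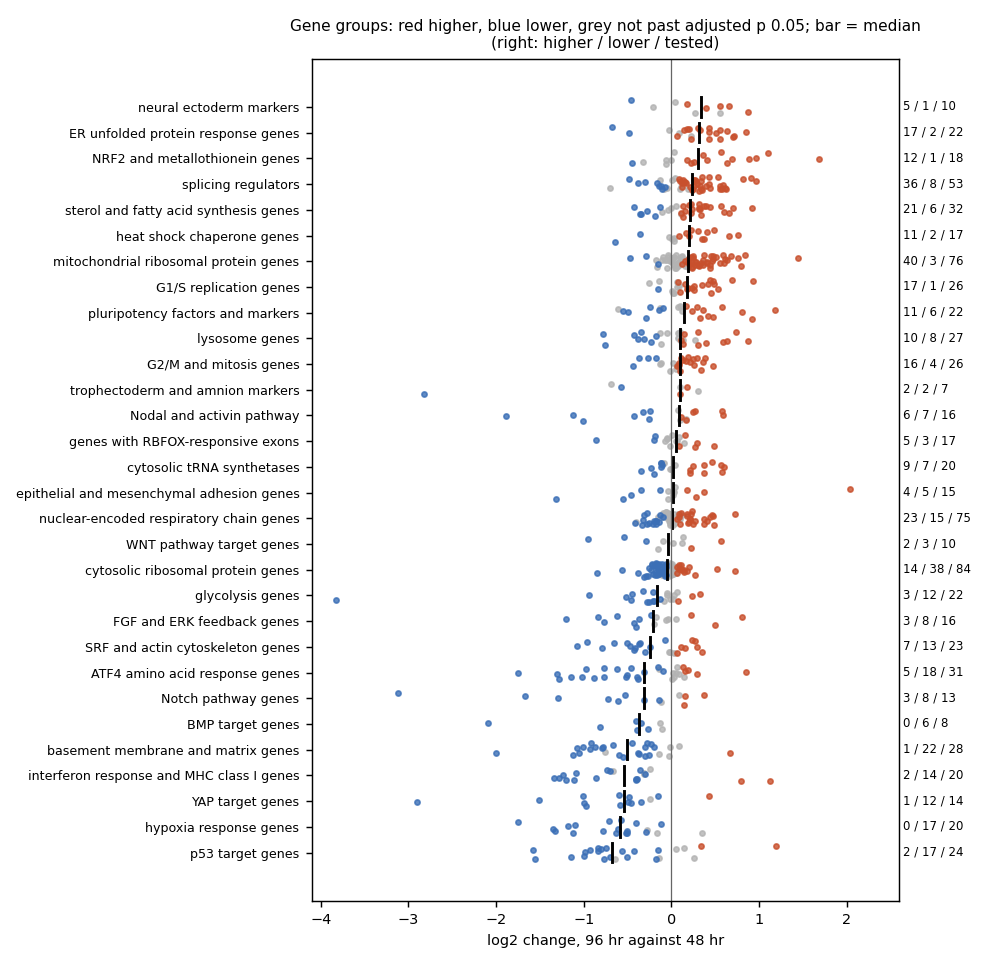
Log2 change from 48 to 96 hr (x axis) of every tested member of 30 gene groups, 1 row a group, with the median as a bar and the counts higher, lower and tested at the right. The p53, hypoxia and YAP groups sit to the left with medians of -0.67, -0.59 and -0.54, and the unfolded protein response and splicing regulators sit to the right with medians of 0.32 and 0.23.

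Of 22 pluripotency genes tested, 11 rose and 6 fell (median log2 change 0.15). PRDM14, a repressor of differentiation genes, was at 46.5, 46.0, 39.2 and 46.5 CPM at 48 hr and 109, 118, 85.7 and 93.9 at 96 hr (log2 change 1.18, SE 0.0535, adjusted p = 1.4e-15). DNMT3B, the de novo DNA methyltransferase, was at 1253, 1338, 1127 and 1177 CPM at 48 hr and 2072, 2537, 1848 and 2126 at 96 hr (log2 change 0.80, SE 0.0282, adjusted p = 1.1e-17), and L1TD1, an RNA-binding protein, rose (0.47). Neither gene's times overlapped. PODXL, a surface sialomucin, fell (-0.49). The defining factors POU5F1 and NANOG, named after their values were seen, changed by less: POU5F1 was at 1242, 1126, 1251 and 1272 CPM at 48 hr and 1125, 1171, 1131 and 1137 at 96 hr (log2 change -0.098, SE 0.0289, adjusted p = 0.00509, lower in 3 of 4 pairs) and NANOG at 37.9, 38.2, 35.9 and 36.8 CPM at 48 hr and 29.8, 34.2, 35.9 and 36.8 at 96 hr (log2 change -0.12, adjusted p = 0.121). Of the naive markers only TFCP2L1 passed the test, and fell (-0.72), of 4 tested.

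Lineage markers were mostly too low to be tested. Of 17 mesendoderm and endoderm markers 2 were tested and both fell, the Nodal antagonist CER1 and the VEGF receptor KDR (-0.80). Of 10 neural ectoderm genes tested 5 rose and 1 fell (median 0.34). The adhesion molecule NCAM1 was at 10.8, 7.52, 10.7 and 10.1 CPM at 48 hr and 18.5, 13, 17.5 and 13.2 at 96 hr and the neuronal tubulin TUBB3 at 4.44, 4.55, 4.82 and 4.49 CPM at 48 hr and 5.87, 11.2, 7.28 and 9.41 at 96 hr. Both were higher in all 4 libraries at 96 hr (log2 changes 0.66, SE 0.101, adjusted p = 3.9e-06 and 0.87, SE 0.151, adjusted p = 2.2e-05), while N-cadherin, CDH2, fell (-0.46). The 8 neural markers summed to 42.2 to 49.8 CPM at 48 hr and 51.3 to 60.0 at 96 hr. Most of that sum was NES, at 30.3 to 33.3 CPM at 48 hr and 34.8 to 37.7 at 96 hr. NES, TUBB3 and MAP2 were higher at 96 hr in every pair. STMN2, ELAVL3 and ELAVL4, at no more than 2.38 CPM, were lower in every pair. DCX was mixed and PAX6 was at most 0.0983 CPM. MAP2 rose (0.55) but did not pass the test with DESeq2 (adjusted p = 0.0886) or without the control pair (0.0871). Of 7 trophectoderm and amnion markers tested 2 rose and 2 fell. GABRP, described above, fell the most (-2.82). The keratins KRT8 (0.100) and KRT18 (0.18) rose slightly, and KRT7 fell (-0.57), a call lost with DESeq2 (adjusted p = 0.1) and without the control pair (log2 change -0.34, adjusted p = 0.162). Of 15 adhesion genes 4 rose and 5 fell (60.0% called), with the epithelial GTPase RAB25 lower (-1.31) and the splicing regulator ESRP1 higher (0.29).

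Replication genes were higher at 96 hr: of the 26 tested members, 17 rose and 1 fell, with a median log2 change of 0.18. MCM5, a subunit of the replicative helicase, was at 246, 260.3, 246 and 252 CPM at 48 hr and 403, 439, 374 and 404 at 96 hr, without overlap (log2 change 0.69, SE 0.0301, adjusted p = 7.1e-16). MCM2 (0.53), MCM4 (0.45) and DNA polymerase alpha POLA1 (0.44) rose. Of 26 mitosis genes 16 rose and 4 fell (median 0.095); CDC20, an activator of the anaphase-promoting complex, rose (0.47), as did CCNA2 (0.39) and HMMR (0.37), and CDK1 fell (-0.37). Sterol and fatty acid synthesis genes leaned upward, 21 higher and 6 lower of 32 (median 0.21). LSS, lanosterol synthase, was at 119, 116, 116 and 111 CPM at 48 hr and 216, 224, 215 and 223 at 96 hr (log2 change 0.93, SE 0.0353, adjusted p = 5.7e-17), and the regulator SREBF1 (0.71) and the desaturase FADS2 (0.44) rose.

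Mitochondrial ribosomal protein genes rose more often than they fell: of 76 tested, 40 rose and 3 fell, with a median log2 change of 0.20. The share called was 56.6%, beside 60.1% of all genes. By direction, 52.6% rose and 3.95% fell, beside 52.3% and 24.7% of all genes at 100 CPM or more. MRPL1 was at 26.4, 29.1, 24.9 and 27.4 CPM at 48 hr and 79.4, 76.5, 66.8 and 72.4 at 96 hr (log2 change 1.45, SE 0.0582, adjusted p = 1.3e-16), and MRPL15 (0.80), MRPL20 (0.56) and MRPL3 (0.36) rose. Genes of the respiratory chain divided, 23 higher (30.7%) and 15 lower (20.0%) of 75, beside 29.7% and 30.4% of all genes, with NDUFB10 (0.48) and ATP5PB (0.45) higher and COX6C (-0.34) and UQCRC2 (-0.28) lower. Of 84 cytosolic ribosomal protein genes 38 fell and 14 rose (median -0.050), with RPL3 (-0.38), RPL13A (-0.32) and RPL39L (-0.85) lower and RPS26 (0.72) higher. These genes have many processed copies, and only spliced reads were counted. Genes of the ATF4 amino acid response fell more often than they rose: of the 31 tested members, 5 rose and 18 fell, with a median log2 change of -0.31. The serine synthesis enzyme PHGDH (-0.61), the amino acid transporters SLC7A3 (-1.02) and SLC38A2 (-0.51) and VLDLR (-1.28) fell. Of 20 cytosolic tRNA synthetases 9 rose and 7 fell, FARSA (0.56), FARSB (0.60), RARS (0.58) and TARS (0.37) upward, and of 27 lysosome genes 10 rose (37.0%, beside 29.7% of all genes) and 8 fell (29.6%, beside 30.4%), with CTSB (-0.76), GAA (-0.78) and PSAP (-0.35) lower and LAMP1 (0.39) higher.

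RNAs of splicing regulators rose: of the 53 tested members, 36 rose and 8 fell, with a median log2 change of 0.23. The share called was 83.0%, beside 60.1% of all genes. By direction, 67.9% rose and 15.1% fell, beside 52.3% and 24.7% of all genes at 100 CPM or more. The list was not compared with genes of matched level. HNRNPM, which binds GU-rich RNA and shapes alternative splicing (ENSG00000099783.11, chromosome 19, 8444767 to 8489114), was at 753, 806, 713 and 714 CPM at 48 hr and 1436, 1416, 1369 and 1388 at 96 hr. SRSF6, an SR protein (ENSG00000124193.14, chromosome 20, 43457928 to 43464247), was at 114, 116, 110.1 and 111 CPM at 48 hr and 203, 199.9, 197 and 197 at 96 hr. Neither gene's times overlapped, and the log2 changes were 0.91 (SE 0.0258, adjusted p = 2.2e-19) and 0.82 (SE 0.0344, adjusted p = 3.3e-16). HNRNPDL (0.58) and HNRNPU (0.56) rose as well. RBFOX2, the knockdown target, was at 127, 81.9, 125 and 91.4 CPM at 48 hr and 129, 82.2, 115 and 86.3 at 96 hr (log2 change -0.045, adjusted p = 0.364). The total knockdown library held 64.4% of the control's RBFOX2 reads at 48 hr and 63.5% at 96 hr, the N-long library 71.8% and 66.7%, and the N-short library 98.2% and 88.6%.

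Cassette exons were measured as inclusion, the share of reads that join the exon among those that join or skip it. Of 6739 exons tested, 1025 passed an adjusted p of 0.05 (15.2%), 525 with higher inclusion at 96 hr (7.79%) and 500 with lower (7.42%), at 929 separate places in 821 genes. The exons with higher inclusion had a median length of 87 nt and those with lower inclusion 114 nt, against 106 nt for all tested. Lengths that are a multiple of 3, which keep the reading frame, made up 54.3% and 56.0% of them, against 46.9% of all tested. Without the N-long pair 676 exons passed the test, and limma on log2 ratios of inclusion to skipping reads called 87 (42 higher, 45 lower; 1799 at an unadjusted p under 0.05).

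Of the named exons with lower inclusion at 96 hr, 5 that lie wholly in coding sequence are shown here, read from GENCODE 29 transcripts on hg38 with the exon in capitals and 10 bases of each neighbouring exon in lower case. They are those of HDAC7, a class IIa histone deacetylase (111 nt, chromosome 12, 47795906 to 47796016, minus strand), SPTAN1, the alpha chain of non-erythroid spectrin (15 nt, chromosome 9, 128609651 to 128609665, plus strand), BPTF, the chromatin reader of the NURF remodeller (189 nt, chromosome 17, 67875556 to 67875744, plus strand), ACIN1, a nuclear RNA-binding protein (120 nt, chromosome 14, 23089982 to 23090101, minus strand), and MAP3K7, the kinase TAK1 (81 nt, chromosome 6, 90544552 to 90544632, minus strand).
HDAC7: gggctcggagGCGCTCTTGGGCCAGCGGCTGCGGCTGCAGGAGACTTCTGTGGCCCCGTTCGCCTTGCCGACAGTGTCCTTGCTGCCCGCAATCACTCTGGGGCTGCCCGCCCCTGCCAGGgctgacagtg
SPTAN1: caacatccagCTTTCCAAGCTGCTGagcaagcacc
BPTF: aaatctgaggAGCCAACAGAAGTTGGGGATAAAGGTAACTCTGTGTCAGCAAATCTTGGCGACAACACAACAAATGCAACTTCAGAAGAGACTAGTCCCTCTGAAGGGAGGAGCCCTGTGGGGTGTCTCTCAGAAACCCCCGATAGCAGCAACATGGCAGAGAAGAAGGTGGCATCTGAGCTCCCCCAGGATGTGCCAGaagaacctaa
ACIN1: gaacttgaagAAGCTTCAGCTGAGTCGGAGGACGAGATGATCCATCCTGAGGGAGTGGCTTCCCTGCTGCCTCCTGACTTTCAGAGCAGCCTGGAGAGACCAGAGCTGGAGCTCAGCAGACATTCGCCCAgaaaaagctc
MAP3K7: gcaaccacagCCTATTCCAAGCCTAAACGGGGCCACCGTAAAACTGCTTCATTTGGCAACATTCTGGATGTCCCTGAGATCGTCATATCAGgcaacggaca

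All of the exons shown have a length that is a multiple of 3. The named PLA2G12A exon, also coding and with lower inclusion, does not (71 nt). Over all exons with lower inclusion the share was 56.0%. Inclusion of the HDAC7 exon was 67.9, 68.8, 86.5 and 79.3% at 48 hr and 24.3, 28.3, 29.7 and 28% at 96 hr, a change of -48 ± 7.42 percentage points (SD, n = 4 pairs) and a log2 odds change of -3.05 (SE 0.279, adjusted p = 1.5e-08). The SPTAN1 microexon was at 77.5, 72.2, 79.2 and 76.5% at 48 hr and 41, 30.6, 38.7 and 31.1% at 96 hr (log2 odds change -2.57, SE 0.143, adjusted p = 8.1e-13). For both, every 96 hr library was below every 48 hr library. The BPTF exon was at 53.6, 50, 49.0 and 47.0% at 48 hr and 14.5, 16.2, 13.8 and 16.8% at 96 hr (log2 odds change -2.45, SE 0.163, adjusted p = 4.1e-11) and the ACIN1 exon at 55.3, 56.0, 55.1 and 53.5% at 48 hr and 23.9, 23.0, 22.4 and 15.8% at 96 hr (log2 odds change -2.18, SE 0.177, adjusted p = 2.1e-09). The MAP3K7 exon, in a gene listed for an RBFOX-responsive exon, was at 33.3, 28.9, 35.8 and 31.9% at 48 hr and 6.09, 6.98, 10.2 and 12% at 96 hr (log2 odds change -2.32, SE 0.257, adjusted p = 4.2e-07). Its total knockdown library lay close to the control at both times. In none of the BPTF, ACIN1 and MAP3K7 exons did the times overlap, and the RBFOX2 knockdown libraries changed in the same direction as the control.

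Among the called exons, the widest difference in inclusion belonged to an exon of EZH2, the histone H3 lysine 27 methyltransferase of Polycomb (82 nt, chromosome 7, 148818978 to 148819059, minus strand), annotated only in a transcript of the nonsense-mediated decay class. Its inclusion was 53.6, 52.0, 60.3 and 52.4% at 48 hr and 5.83, 7.69, 5.36 and 2.75% at 96 hr, from 50 to 120 reads per library. Every 96 hr library was below every 48 hr library (log2 odds change -4.41, SE 0.298, adjusted p = 5.1e-11). An exon of CSNK1D, casein kinase 1 delta, moved upward, at 41.7, 27.1, 36.7 and 37.5% at 48 hr and 69.8, 72.2, 70.1 and 64.7% at 96 hr (log2 odds change 1.98, SE 0.253, adjusted p = 3.9e-06). Among the others with large rises were exons of the WNT receptor FZD3 (31.2 to 48.3% at 48 hr and 76 to 85.3% at 96 hr), the noncoding RNA DLEU1 (17.1 to 35.0% at 48 hr and 61.5 to 71.0% at 96 hr) and the protease CAPN7 (36.2 to 61.1% at 48 hr and 71.4 to 96.3% at 96 hr). Without overlap between times, each rose in 4 of 4 pairs.

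**Figure D3:**
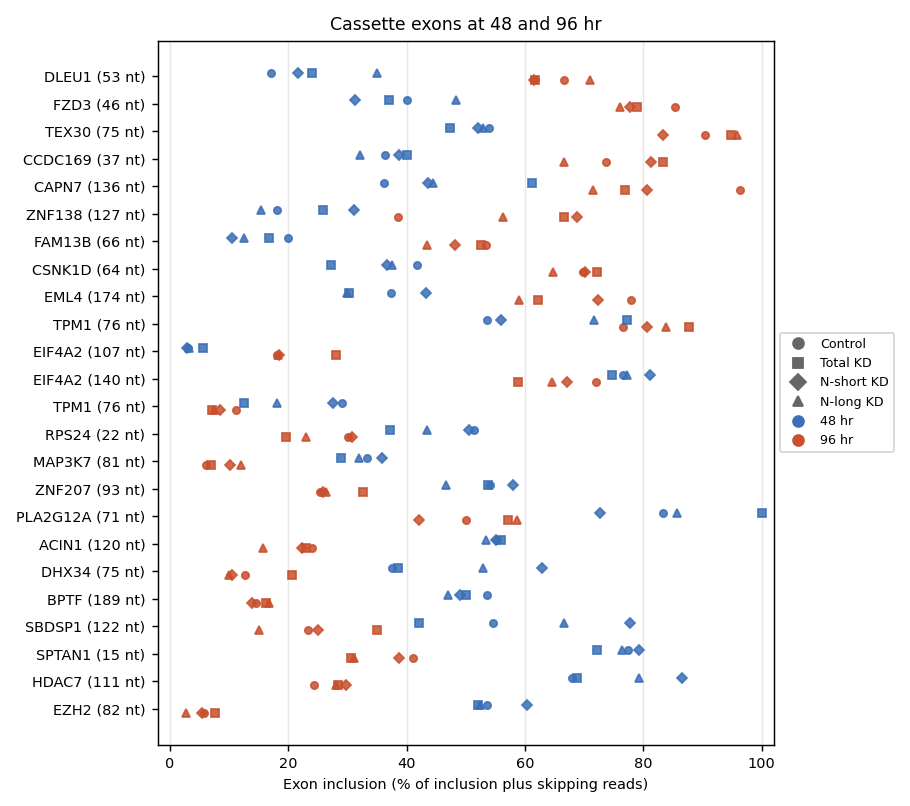
Inclusion of 24 cassette exons (x axis, percent of inclusion plus skipping reads) in each library at 48 hr (blue) and 96 hr (red), symbols marking the knockdown; the exons of EIF4A2, TPM1, RPS24, ZNF207 and EML4 were chosen after their values were seen. The EZH2 exon falls from 52.0 to 60.3% to 2.75 to 7.69%, and the upper TPM1 row rises while the lower TPM1 row falls.

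A few exons outside the rule were chosen after their values were seen. TPM1 has a pair of mutually exclusive 76 nt exons that are identical at 43 of 76 bases (56.6%). The first (chromosome 15, 63061198 to 63061273) was included at 53.6, 77.3, 55.9 and 71.7% at 48 hr and 76.5, 87.7, 80.6 and 83.8% at 96 hr and the second (63061713 to 63061788) at 29.1, 12.5, 27.5 and 18.1% at 48 hr and 11.1, 7.19, 8.5 and 7.46% at 96 hr. The second fell without overlap (-1.57, SE 0.132, adjusted p = 4.4e-09 in log2 odds), and the first rose in 4 of 4 pairs with overlapping ranges (1.36, SE 0.121, adjusted p = 1.1e-08). Both are printed in transcript order, plus strand of hg38, with the exon in capitals.
TPM1 first: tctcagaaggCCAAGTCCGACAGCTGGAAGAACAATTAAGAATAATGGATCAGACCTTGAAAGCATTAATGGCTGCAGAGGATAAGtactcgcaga
TPM1 second: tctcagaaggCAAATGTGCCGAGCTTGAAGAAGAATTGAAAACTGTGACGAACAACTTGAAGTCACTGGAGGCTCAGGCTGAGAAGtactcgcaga

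EIF4A2, a helicase of translation initiation, has an exon annotated only in the nonsense-mediated decay class (107 nt, chromosome 3, 186788310 to 186788416, plus strand). Its inclusion was 3.01, 5.51, 2.90 and 3.15% at 48 hr and 18.1, 28.1, 18.5 and 18.2% at 96 hr, from 481 to 1492 reads per library (log2 odds change 2.81, SE 0.111, adjusted p = 2.4e-16). Every 96 hr library was above every 48 hr library, with the total knockdown library highest at both times. The reads of the gene as a whole were 898, 829, 902 and 906 CPM at 48 hr and 539, 471, 528 and 531 at 96 hr, lower in all 4 libraries at 96 hr, a log2 change of -0.77 (SE 0.0252, adjusted p = 3.1e-18).

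Exons of the splicing regulators themselves were among those that changed: 27 of 73 tested (37.0%, beside 15.2% of all exons) in 19 of 39 genes, 8 higher and 19 lower. Read depth differs: the median over all tested exons was 50.4 reads, and the 27 range from CELF2 (21.1) to HNRNPA1 (4437). With a mean of at least 50 reads, 794 of 3395 exons were called, and shares at matched depth were not compared. Some changes were small, such as SRSF3 (-1.15 points). Among the 73, 17 exons are annotated in transcripts of the nonsense-mediated decay class and in no protein-coding one. Of these 17, 8 fell and none rose (47.1% called). The other 56 exons of splicing regulator genes were also called more often than all exons, 8 higher and 11 lower (33.9%). In other genes, exons of the decay class numbered 877, of which 39 rose and 61 fell (11.4%). The SRSF6 exon (268 nt, chromosome 20, 43459153 to 43459420, plus strand) was at 14.8, 13, 12.9 and 14.4% at 48 hr and 4.14, 4.39, 4.91 and 6.06% at 96 hr, and the HNRNPDL exon (105 nt, chromosome 4, 82425563 to 82425667, minus strand) at 14.1, 16.2, 13.3 and 15.7% at 48 hr and 4.45, 6.18, 6.18 and 4.51% at 96 hr. Both were lower in every 96 hr library (log2 odds changes -1.64, SE 0.212, adjusted p = 4.5e-06 and -1.65, SE 0.151, adjusted p = 1.5e-08), in genes whose RNA rose. The other 6 were in SRSF11, TIAL1, TIA1, RBM39, SRSF3 and TRA2A. The RNA of these genes also rose, by as little as 0.090 for TIAL1 and 0.10 for RBM39, apart from TIA1, with a log2 change of -0.12. Rises were common without a called exon: 67.9% of all splicing regulators rose. Among genes whose decay-class exon was not called, SRSF2 (0.61), TRA2B (0.43), SRSF7 (0.29), RBM47 (0.26) and HNRNPLL (0.24) rose. NOVA1 and CLK4 did not pass the gene test. Several of the 27 are forms of 1 exon with different ends, in TIAL1, TRA2A and HNRNPC.

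Coding exons of splicing regulators moved too. The HNRNPA2B1 exon (36 nt, chromosome 7, 26197831 to 26197866, minus strand), which separates the A2 and B1 proteins, was at 16.9, 19.5, 16.5 and 17.4% at 48 hr and 24.7, 26.6, 24.3 and 24.2% at 96 hr (log2 odds change 0.64, SE 0.0566, adjusted p = 9.3e-09). The HNRNPD exon (57 nt, chromosome 4, 82371528 to 82371584, minus strand) was at 71.5, 68.4, 67.5 and 71.2% at 48 hr and 80.8, 84.5, 79.3 and 82.7% at 96 hr (log2 odds change 0.97, SE 0.0880, adjusted p = 1.4e-08). Both were higher at 96 hr in every library, without overlap, and are shown in the same notation.
HNRNPA2B1: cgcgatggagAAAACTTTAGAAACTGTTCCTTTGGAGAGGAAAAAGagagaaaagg
HNRNPD: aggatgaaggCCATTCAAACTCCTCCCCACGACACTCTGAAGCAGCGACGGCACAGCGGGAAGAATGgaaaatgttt

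RBFOX proteins bind (U)GCAUG in the introns beside an exon and, depending on the side, promote inclusion or skipping. In 15 genes that have an exon known to respond to them, 45 exons were tested, responsive or not. Of these, 13 changed with time (28.9%, beside 15.2% of all exons), 4 higher and 9 lower. Read depth differs here too: the 13 range from NBEA (23.5) to ENAH (484.9), beside a median of 50.4 over all tested. Shares at matched depth were not compared, and some of the 45 are forms of 1 exon with different ends, in ECT2, PICALM and CAMK2G. Not all of the 13 differed with knockdown. At 48 hr the ECT2 exon of 267 nt was at 12.82% in the control and 14.06% in total knockdown, and the KIF21A exon of 129 nt at 31.71 and 31.15%. The 3 exons described below did differ. The RNA of CAMK2D fell (-0.86), and that of KIF21A (0.48), TSC2 (0.30) and DIAPH1 (0.27) rose, among 5 of 17 genes that rose and 3 that fell (47.1% called, beside 60.1% of all genes). A microexon of KIF21A, a kinesin (21 nt, chromosome 12, 39330242 to 39330262, minus strand), was at 71.1, 26.2, 63 and 46.9% at 48 hr and 34.9, 25, 37.5 and 27.8% at 96 hr (log2 odds change -1.30, SE 0.312, adjusted p = 0.00471). The control and N-short libraries were high at 48 hr, the total knockdown library was as low at 48 hr as at 96 hr, and the ranges overlapped. An exon of NBEA, a neuronal trafficking protein (63 nt, chromosome 13, 35645869 to 35645931, plus strand), was at 90.5, 41.4, 100 and 79.3% at 48 hr and 74.2, 17.6, 84.2 and 25% at 96 hr (log2 odds change -2.60, SE 0.612, adjusted p = 0.00405), from 17 to 31 reads per library. The GOLIM4 exon (84 nt, chromosome 3, 168040786 to 168040869, minus strand), in a Golgi membrane protein, was at 87.4, 31.9, 88.3 and 55.2% at 48 hr and 82.5, 23.0, 71.9 and 27.5% at 96 hr (log2 odds change -1.19, SE 0.241, adjusted p = 0.00101). In NBEA and GOLIM4 the total knockdown library was the lowest at both times.
KIF21A: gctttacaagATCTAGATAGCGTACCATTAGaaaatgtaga
NBEA: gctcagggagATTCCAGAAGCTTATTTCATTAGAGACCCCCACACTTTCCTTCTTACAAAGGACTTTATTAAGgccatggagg
GOLIM4: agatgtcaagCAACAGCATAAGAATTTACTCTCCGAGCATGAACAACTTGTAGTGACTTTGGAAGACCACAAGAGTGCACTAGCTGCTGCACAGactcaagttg

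To set time beside knockdown in the same exons, the difference of each knockdown library from the control of its own time was computed for 12 of these exons, chosen after their values were seen. With 1 library per knockdown and time these differences have no replicate and no test. Total knockdown differed from control by -44.9 points at 48 hr and -9.85 points at 96 hr in the KIF21A exon, where the control itself was at 71.1% and 34.9%. N-long knockdown gave -11.2 points at 48 hr and -49.2 points at 96 hr for NBEA and -32.1 points at 48 hr and -55.0 points at 96 hr for GOLIM4. Over the 12 exons the median difference was -46.7 points at 48 hr and -33.0 at 96 hr for total knockdown, -27.8 at both times for N-long and -3.95 and -3.44 for N-short. The difference was smaller at 96 hr in 7, 6 and 3 of the 12 exons in that order, so the direction of the change differed between exons.

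**Figure D4:**
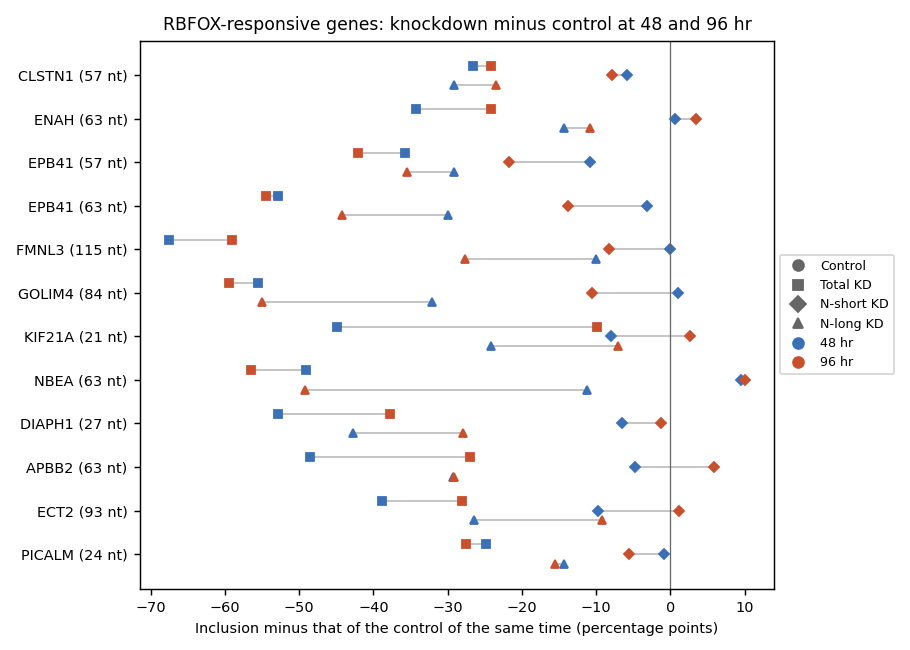
Inclusion in each knockdown library minus that of the control library of the same time (x axis, percentage points) for 12 exons of RBFOX-responsive genes, at 48 hr (blue) and 96 hr (red), symbols marking the knockdown; each point is 1 library against 1. KIF21A moves from -44.9 to -9.85 points in total knockdown, and NBEA from -11.2 to -49.2 points in N-long knockdown.

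The order of the changes over time can be set beside 6 doxycycline libraries at 24 hr, 3 of library series 21c (total, N-short and N-long knockdown) and 3 of series 23b (control, N-short and N-long knockdown). These were made in other series, so that hours, harvest and library series cannot be told apart. Of 7194 genes that passed the test with at least 2 CPM, the mean at 24 hr was nearer to 96 hr than to 48 hr in 5241 (72.9%). By series, each against the 48 and 96 hr libraries of its own knockdowns, the count was 6026 (83.8%) for 21c and 3567 (49.6%) for 23b. The mean over all 6, whose knockdowns are mixed differently from those at 48 and 96 hr, lay between the other means in 5402 (75.1%), beyond 96 hr in 1419 and beyond 48 hr in 373. By the median absolute log2 difference between libraries of the same knockdown, the 21c libraries were 0.246 to 0.275 from those at 48 hr and 0.125 to 0.150 from those at 96 hr. The 23b libraries lay about as far from each, at 0.182 to 0.194 and 0.184 to 0.189. Libraries of different knockdowns within a set differed by 0.086 to 0.123, and the 48 and 96 hr libraries by 0.251 to 0.256.

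In 15 of 32 gene groups the 48 hr libraries lay clear of all other libraries, above them in 9 and below them in 6. Relative to the 48 hr mean, the median of the p53 targets was -0.67 to -0.58 in the 21c libraries, -0.45 to -0.35 in 23b and -0.68 to -0.45 at 96 hr. The unfolded protein response genes were at 0.29 to 0.32, 0.19 to 0.22 and 0.29 to 0.40, and the splicing regulators at 0.17 to 0.25, 0.17 to 0.18 and 0.23 to 0.30. Hypoxia response genes differed between the 24 hr sets, at -0.64 to -0.53 in 21c and 0.18 to 0.24 in 23b, against -0.63 to -0.51 at 96 hr. For exons the counts are again by series and matched knockdowns. Of the 16 with the largest changes, 16 were nearer to 96 hr in 21c and 12 in 23b. Of the 27 called in splicing regulators, 21 and 17 were, and of the 13 called in RBFOX-responsive genes, 12 and 12.

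**Figure D5:**
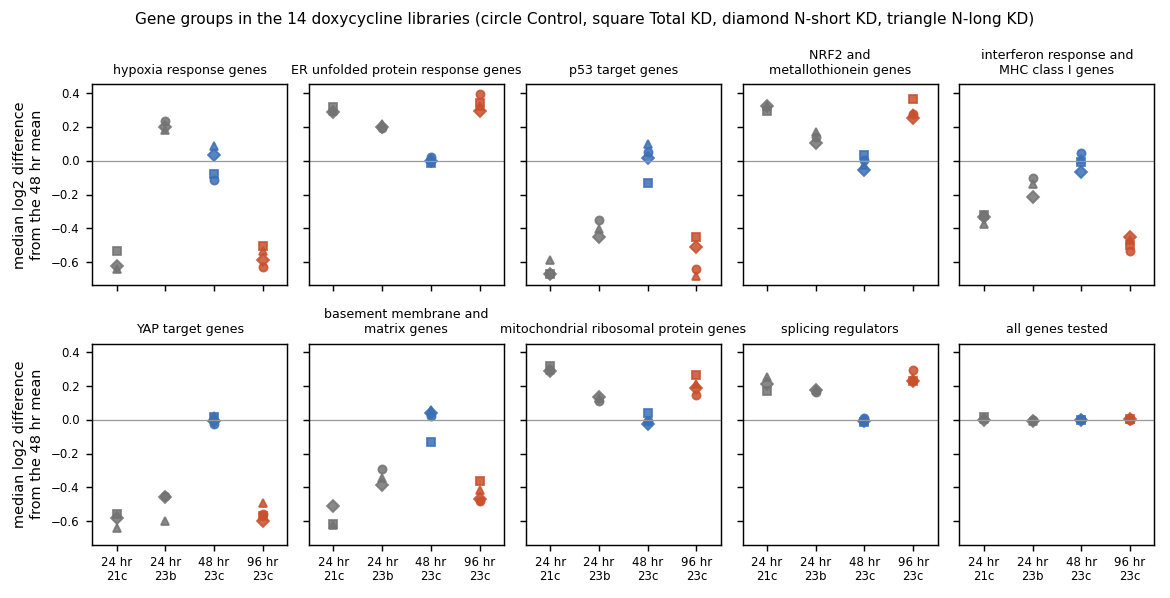
Median log2 difference from the 48 hr mean (y axis) over the members of 9 gene groups and over all genes tested, 1 point a library, for the 14 doxycycline libraries by time and library series (x axis); symbols mark the knockdown. All genes sit at 0 in every set, the p53 and YAP groups are low in every set but that at 48 hr, and the hypoxia group is low in 21c and at 96 hr and above 0 in 23b.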

How the data were processed

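For each library the authors deposited a 12-column table of splice junctions with a column of raw read counts, whole numbers with no scaling. The submitters' processing notes list STAR 2.7.1, SAMtools 1.9 and hg38 with no role or order; the alignment filters are not given in the sources used here. RNA was ribo-depleted total RNA, per the labels' protocols. Junction counts were summed per gene over GENCODE 29 introns that belong to 1 gene name; unspliced reads and genes without introns are not measured. Cassette exons of up to 1000 nt were scored from the rounded mean of both inclusion junctions and the skipping junction, with a mean of at least 20 reads and a pooled inclusion of 2 to 98%.

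Genes were tested with edgeR 4.0.16 (quasi-likelihood, TMM scaling, terms for knockdown and time; 8 libraries, 5 terms, 3 residual degrees of freedom), and exons with the same test on inclusion and skipping counts in pairs of columns with a term per library. All tests were two-sided, with Benjamini-Hochberg adjustment over all genes or exons tested and a threshold of 0.05. An exact sign-flip permutation test over 4 pairs cannot go below p = 0.125, so none was used. Alternatives were DESeq2 1.42.0, limma 3.58.1 and voom, RLE scaling, other filters, no knockdown term, all 14 doxycycline libraries, a minimum log2 change of 1 and each pair left out. R 4.3.3, Python 3.11.15, pandas 2.3.3, numpy 2.4.6 and matplotlib 3.10.9 were used. On simulated counts for this comparison, 99% of genes changed by 1 on the log2 scale and 71.4% of those changed by 0.5 were recovered (12909 genes), and 56% and 18% of exons changed by log2 odds of 2 and 1 (6739 exons). At each size 100 genes or exons were changed, and in the same runs 11 unchanged genes and 2 unchanged exons were called. The changed features were far fewer than those called in the data (60.1% of genes, 15.2% of exons). The adjusted threshold depends on that share, so recovery in the data may differ. With no change simulated, 0 genes and 0 exons were called.

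Named genes are the 12 with the largest log2 change in each direction among called genes with a mean of at least 2 CPM and the same direction in 4 of 4 pairs, up to 4 called members with the smallest p of each of 32 gene lists, and RBFOX2. Named exons are the 8 with the largest difference in inclusion in each direction and the called exons of the RBFOX list. List members named beyond these 4 (such as CRELD2, EDEM1, ERN1, IRF7, ME1, TXNRD1, USP18, VCAN and AMOTL1), and the exons of EIF4A2, TPM1, HNRNPA2B1, HNRNPD, SRSF6 and HNRNPDL, were chosen after their values were seen. A few list members that the rule names are not reported here. The members and lists were chosen with earlier results of these data known. Promoter sequences are from RefSeq (GRCh38.p14) and exon sequences from GENCODE 29.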

Additional observations from a re-analysis of the deposited data

Results flagged for a closer look

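In 201 groups of 4 pair values, 1 per knockdown, 12 had a pair that lay apart from the other 3 by Dixon's test; chance alone marks about 1 in 20 groups. In the control pair the log2 change of AC097478.1 was -2.73 (others -3.00 to -2.96), that of KRT7 was -1.32 (others -0.379 to -0.312) and that of MRPL1 was 1.59 (others 1.40 to 1.42). The ZNF138 exon of 127 nt rose by 20.3 points in the control pair against 37.7 to 40.9 in the others, and the TRA2A exon of 312 nt changed by -14.4 points against -9.55 to -8.57. In the total knockdown pair CALR changed by 0.568 (others 0.376 to 0.394) and FADS2 by 0.488 (others 0.423 to 0.434) on the log2 scale. In the N-short pair GABRP changed by -3.14 (others -2.74 to -2.65), MCM4 by 0.416 (others 0.459 to 0.465) and NDUFB10 by 0.665 (others 0.412 to 0.426). In the N-long pair CCNG1 changed by -0.879 (others -0.736 to -0.712) and GCLC by 0.591 (others 0.339 to 0.368). Of these 12, KRT7 was the 1 result whose call was lost without the pair that lay apart.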

How the results depend on the processing

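With a minimum log2 change of 1 the count of genes was 925 (152 higher, 773 lower) in place of 7755, since most changes were smaller. The other alternatives for genes gave 5966 (DESeq2) to 8006 calls (no filter, 20056 tested). Leaving out each pair gave 6888 to 7316 genes, of which 3421 to 3625 were higher and 3467 to 3691 lower. Exon counts were 794 to 1103 with the other filters, without knockdown terms or with 14 libraries. With limma they were 87 (42 higher, 45 lower) in place of 1025 (525 and 500), and the cause was not tested. Leaving out each pair gave 676 to 797 exons, 350 to 425 higher and 326 to 386 lower, the lowest count being that without the N-long pair.

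No named gene or exon changed direction under any alternative run. Of 145 named genes, 142 kept their side of the threshold under every alternative in which they were tested, other than the size limit, the exceptions being ID2, KRT7 and MAP2. Of 56 exons, 35 likewise kept theirs, other than under limma, with which 44 were no longer called. With at least 50 reads, 129 of the genes and 42 of the exons were tested. The main limits are depth and design, with 1 library per knockdown and time. In the simulation 18% of exons with a log2 odds change of 1 were recovered, with far fewer exons changed than were called here. No paired analysis was possible because all 8 libraries carry replicate number 1, where pairing means a block by replicate number. The pairs compared here are by knockdown, and without the knockdown term 7394 genes and 920 exons were called.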
